A study of Mus musculus with 12 samples.

Results

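The metallothionein genes Mt1 and Mt2 and 8 genes of the Nrf2 antioxidant system (Nqo1, Gclc, Gclm, Txnrd1, Srxn1, Hmox1, Gpx1 and Nfe2l2, which encodes Nrf2 itself) were followed in mouse liver after vertical sleeve gastrectomy (VSG). They were listed by gene symbol, with earlier results of these data known, and make up 10 of the 24910 genes and 14 of the 34933 RefSeq transcripts for which expression was listed. RNA was sequenced (RNA-seq) and accessible chromatin was read by formaldehyde-assisted isolation of regulatory elements (FAIRE-seq) in the same livers, from 2 mice in each of 3 groups. The 6 RNA libraries and the 6 FAIRE libraries came from wild-type male C57BL/6J mice. Control (Ctl) mice had no surgery and ate standard chow for 28 weeks. Sham and VSG mice received a high-fat diet with 60 kcal% saturated fat from 8 weeks of age, for 14 weeks before surgery and 14 weeks after it. In VSG, about 80% of the stomach was removed along its lateral side, whereas in the Sham operation the stomach was only isolated and pressed with blunt forceps. Both operated groups took liquid diet during the first 4 days after the operation. No mice on chow had either operation, so the Control group differed from Sham and VSG mice in both diet and surgery.

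Metallothioneins are small cysteine-rich proteins that bind zinc, copper and cadmium. Their genes are switched on through metal response elements (MRE), which the zinc-sensing factor MTF-1 binds, and in liver they also respond to glucocorticoids and to inflammation. Nrf2 is held low by Keap1 and, when released by oxidants or electrophiles, binds with a small Maf protein at antioxidant response elements (ARE) of genes that make glutathione, reduce thioredoxin and clear quinones and heme.

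The promoters are shown first because the results turn on the metallothionein locus, in RNA and in chromatin. RefSeq promoter windows of 300 bases (250 before a start site and 50 after it, build GRCm38.p6) were listed for 8 of the 10 genes, and each was found once, unchanged, in NCBIM37, the assembly also called mm9 on which the deposited peaks lie. Gclc and Hmox1 had no window. The ARE was searched as TGACNNNGC and the MRE core as TGCACNC or TGCGCNC, on both strands. An ARE match was present in the windows of 5 of the 8 genes (Mt2, Gclm, Txnrd1, Srxn1 and Nfe2l2) and in 12.4% of all 32851 windows. An MRE match was present in 4 of the 8 (Mt1, Mt2, Gclm and Srxn1) and in 25.7% of all windows. In these counts a gene had a match in any of its windows, whereas the shares are per window. Txnrd1 had 3 windows, and its ARE match lay in window 2. Mt2 held 4 MRE matches in its 300 bases, and 0.517% of all windows held as many. Mt1 and Gclm held 3 each, and 1.97% of all windows held at least 3. The AP-1 site TGACTCA, which can overlap an ARE, was found in the windows of Mt2 and Srxn1 and in 5.2% of all windows. Below, the 250 bases before the start site of Mt2 (chr8:96696268-96696517, plus strand) and of Mt1 (chr8:96702739-96702988, plus strand) are printed from 5′ to 3′. Capitals mark MRE and ARE matches. In Mt2 the MRE matches began 223, 128 and 50 bases before the start, and the ARE match, which holds the AP-1 site, began 79 bases before it. In Mt1 the match began 23 bases before the start. The other matches of both genes lay in the 50 bases after the start. The 250 bases before the other annotated Mt1 start, at position 96703111, held 5 MRE matches and 1 ARE match.
Mt2: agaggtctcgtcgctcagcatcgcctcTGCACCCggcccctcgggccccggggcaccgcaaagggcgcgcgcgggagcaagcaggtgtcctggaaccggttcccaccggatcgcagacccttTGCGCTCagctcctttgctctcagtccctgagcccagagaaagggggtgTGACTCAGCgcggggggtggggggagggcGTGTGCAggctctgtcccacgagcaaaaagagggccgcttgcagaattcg
Mt1: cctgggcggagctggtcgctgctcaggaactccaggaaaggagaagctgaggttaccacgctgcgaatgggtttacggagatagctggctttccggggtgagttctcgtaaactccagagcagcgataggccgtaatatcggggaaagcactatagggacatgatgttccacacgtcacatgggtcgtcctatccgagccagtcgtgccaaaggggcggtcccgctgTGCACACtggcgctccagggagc

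The 29-base stretches around the ARE matches upstream of Gclm, Txnrd1 and Nfe2l2 are shown beside that of Mt2 to compare the variable bases of the element, with the match in capitals. They lie at chr3:121948331-121948359 (Gclm, plus strand), chr10:82321849-82321877 (Txnrd1, plus strand, 92 bases before the second of its 3 listed starts), chr2:75542942-75542970 (Nfe2l2, read on its own minus strand) and chr8:96696429-96696457 (Mt2, plus strand). The matches of Gclm and Txnrd1 were on the strand opposite to the gene. In Gclm the ARE and an MRE match overlapped.
Gclm: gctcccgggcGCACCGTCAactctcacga
Txnrd1: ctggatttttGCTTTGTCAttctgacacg
Nfe2l2: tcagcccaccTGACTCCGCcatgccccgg
Mt2: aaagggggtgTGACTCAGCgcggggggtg

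All 4 stretches, and the printed windows of Mt1 and Mt2, lay inside FAIRE peaks of the Control, Sham and VSG lists. A match to these letters describes the sequence and does not show that a factor was bound.

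Expression was given in FPKM, sequenced fragments divided by transcript length and by the mapped total of the library, so levels of different genes can be set side by side. The number of reads behind each value is unknown, and 8682 to 9236 genes reached 1 FPKM per mouse. Mt1 was the most abundant of the 10 genes by mean FPKM in Control and Sham mice, followed by Mt2 and then Gpx1, whose encoded glutathione peroxidase uses selenium to reduce hydrogen peroxide. In VSG mice Gpx1 stood above both metallothioneins. Mt1 ranked 10 and 7 among all genes in the 2 Control mice, 24 and 21 after Sham surgery, and 65 and 128 after VSG. Mt1 and Mt2 together made up 1.60% and 2.34% of the summed FPKM in Control mice, 0.912% and 1.61% in Sham mice, and 0.257% and 0.189% in VSG mice. The other 7 genes were far lower, between 2.01 FPKM (Nqo1 in a Control mouse) and 116.6 FPKM (Gclc in a VSG mouse).

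**Figure D1:**
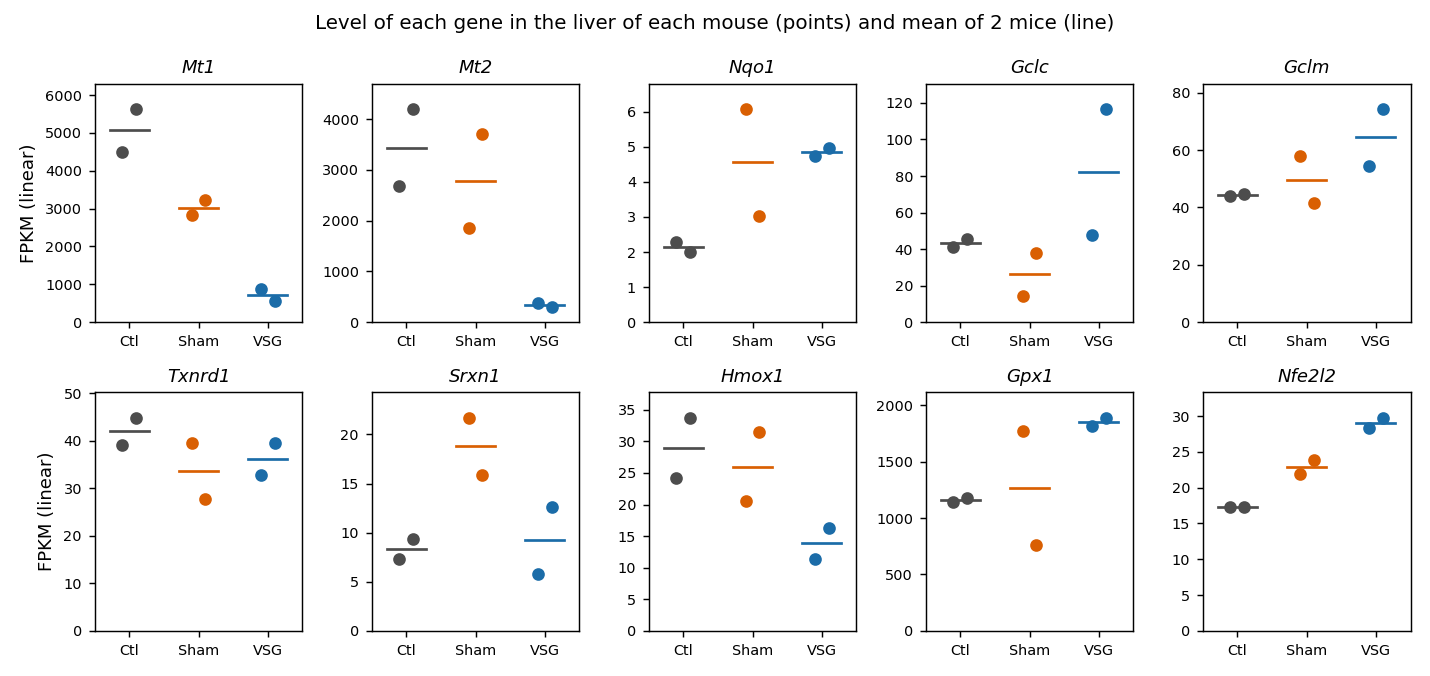
Level of each of the 10 genes in the liver of each mouse, in FPKM on a linear axis that starts at 0 and differs between panels. Points are mice and lines are means of 2 mice in the Ctl, Sham and VSG groups. The VSG points of Mt1 and Mt2 lie below all 4 other points, and those of Nfe2l2 lie above all 4.

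Mt1 (chr8:96702989-96704225, plus strand) was at 4506 and 5629 FPKM in the Control mice, at 2826 and 3221 FPKM after Sham surgery, and at 869.8 and 555.4 FPKM after VSG. The 3 groups did not overlap, and the higher VSG mouse was 3.25-fold below the lowest of the other 4 mice. Group means were 5067 ± 794 FPKM in Control, 3023 ± 279 after Sham surgery and 713 ± 222 after VSG (SD, n = 2). Set against Sham, the VSG estimate was -2.12 ± 0.36 on the log2(FPKM + 1) scale (SE, 95% confidence interval -3.04 to -1.19), with an adjusted p of 0.481 from limma with Benjamini-Hochberg adjustment over 9869 genes. By the ratio of the group means in FPKM, as for the fold of every gene that follows, VSG was 4.24-fold lower than Sham. VSG minus Control was -2.86 ± 0.36 (-3.78 to -1.93), 7.11-fold lower, with an adjusted p of 0.134 by limma. Sham minus Control was -0.74 ± 0.36 with an adjusted p of 0.522 by limma. Mt1 therefore did not pass the false discovery rate (FDR) of 10% in any comparison, although by unadjusted p it ranked 41 of the 9869 genes in VSG against Sham and 37 in VSG against Control.

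Mt2 (chr8:96696518-96697467, plus strand), which starts 6471 bp before Mt1 on the same strand, showed the same order of group means, with a wider spread than Mt1 in Control and Sham and a narrower one in VSG mice. Its level was 2675 and 4196 FPKM in the Control mice, 1861 and 3699 FPKM after Sham surgery, and 377.7 and 307.2 FPKM after VSG. Control and Sham overlapped, whereas the higher VSG mouse was 4.93-fold below the lowest of the other 4. The means were 3435 ± 1075, 2780 ± 1299 and 342.5 ± 49.9 FPKM (SD, n = 2). The difference (VSG minus Sham) was -2.94 ± 0.46 (-4.13 to -1.75), 8.12-fold lower, with an adjusted p of 0.458 by limma. VSG minus Control was -3.29 ± 0.46 (-4.48 to -2.10), 10.03-fold lower, with an adjusted p of 0.175 by limma. Sham minus Control was -0.35 ± 0.46 and was 0.14 without Sham mouse 1, so the sign depended on that mouse. The same Sham mice entered both comparisons in which they are named, and the same holds for the Control and VSG mice, so the 3 differences of a gene are not independent of one another.

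The ratio of Mt1 to Mt2 was 1.68 and 1.34 in Control, 1.52 and 0.871 in Sham, and 2.30 and 1.81 in VSG mice, and both VSG mice thus had the largest ratios. The 186-base coding sequences of Mt1 and Mt2 share 148 bases (79.6%). No stretch of 50 bases, the length of a read, of the longest coding transcript of either gene occurred in a coding transcript of another gene, so exact reads of one would not have been placed on the other. The remaining family members were at or near 0 in liver. Mt3 was listed above 0 only in Sham mouse 2, at 0.902 FPKM, and Mt4 was listed at 0 in all 6 mice.

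Among all 9869 genes tested, 312 (3.16%) were lower in both VSG mice than in each of the other 4 mice, and 3 of the 10 genes were among them (Mt1, Mt2 and Hmox1). Only 38 genes (0.385%) lay at least 2-fold below all 4, and Mt1 and Mt2 were both in that number. In the other direction, 890 genes (9.02%) were higher in both VSG mice than in the other 4, and Gclc, Gpx1 and Nfe2l2 were among them, each by a ratio of no more than 1.19 between the lower VSG mouse and the highest other mouse. These counts describe the order of the mice and are not tests.

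Nfe2l2 (chr2:75513570-75542698, minus strand), the gene of the transcription factor Nrf2, was at 17.28 and 17.33 FPKM in Control, 21.91 and 23.88 in Sham, and 28.38 and 29.74 in VSG mice. The 3 groups did not overlap and the mice within a group lay close together. VSG minus Control was 0.72 ± 0.19 (0.24 to 1.19), 1.68-fold higher, with an adjusted p of 0.397 by limma. VSG minus Sham was 0.33 ± 0.19 and Sham minus Control was 0.38 ± 0.19, with adjusted p values of 0.944 and 0.522 by limma. Keap1, which targets Nrf2 for degradation, was at 12.63 and 11.93 FPKM in Control, 14.87 and 15.33 in Sham, and 15.53 and 15.39 in VSG mice. Of the 11 genes listed as Nrf2 regulators, which include Keap1, the small Maf genes and the repressor gene Bach1, 10 were tested and 0 passed the FDR of 10% in any comparison. Their median log2 differences were -0.06 for Sham minus Control, 0.02 for VSG minus Sham and 0.07 for VSG minus Control. The smallest unadjusted p values in these comparisons belonged to Maff (-1.04), Nfe2l1 (-0.23) and Bach1 (-1.14).

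Gclc and Gclm encode the catalytic and the modifier subunit of glutamate-cysteine ligase, which carries out the rate-limiting step of glutathione synthesis. Gclc (chr9:77602342-77642292, plus strand) was at 41.12 and 45.7 FPKM in Control, 14.26 and 37.91 in Sham, and 47.44 and 116.6 in VSG mice. The mice of a group differed 2.66-fold in Sham and 2.46-fold in VSG, yet both VSG mice were above the other 4. Relative to Sham, VSG differed by 1.63 ± 0.62 (0.04 to 3.22), 3.14-fold higher, with an adjusted p of 0.944 by limma, and it ranged from 0.96 to 2.31 over the alternative settings. Gclm (chr3:121948475-121972902, plus strand) was at 43.84 and 44.69 FPKM in Control, 58.01 and 41.38 in Sham, and 54.6 and 74.28 in VSG mice. For Gclm the Sham mice overlapped both other groups, and VSG minus Sham was 0.37 ± 0.27 with an adjusted p of 0.944 by limma. The ratio of Gclc to Gclm was 0.938 and 1.02 in Control, 0.246 and 0.916 in Sham, and 0.869 and 1.57 in VSG mice, so the low value was that of a single Sham mouse.

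Txnrd1 and Srxn1 serve the thioredoxin and peroxiredoxin cycle, as a selenium-containing thioredoxin reductase and as sulfiredoxin, which repairs over-oxidised peroxiredoxins. Txnrd1 (chr10:82296696-82360469, plus strand) was at 39.1 and 44.79 FPKM in Control, 39.61 and 27.65 in Sham, and 32.89 and 39.46 in VSG mice, and the ranges of all 3 groups overlapped. The log2 differences of Txnrd1 were -0.33 ± 0.26 for Sham minus Control, 0.12 ± 0.26 for VSG minus Sham and -0.21 ± 0.26 for VSG minus Control. The first 2 of these take the other sign when each transcript is tested on its own (0.08 and -0.23), and the second also without Sham mouse 2 (-0.13) or VSG mouse 2 (-0.01). Of its 4 listed transcripts, 2 were at 0 in every mouse, and the split between the others differed within groups, with NM_001042513 listed at 0 in Sham mouse 1 and at 18.1 FPKM in Sham mouse 2.

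Srxn1 (chr2:151931252-151937112, plus strand) was at 7.351 and 9.363 FPKM in Control, 21.68 and 15.89 in Sham, and 5.753 and 12.66 in VSG mice. Both Sham mice were above the other 4. Sham minus Control was 1.07 ± 0.41 (0.03 to 2.12), 2.25-fold higher, with an adjusted p of 0.443 by limma. The difference (VSG minus Sham) was -1.03 ± 0.41, 2.04-fold lower, with an adjusted p of 0.944 by limma. VSG minus Control was 0.05 ± 0.41 and took the other sign under both alternative scalings (-0.06 and -0.11), without Control mouse 1 (-0.11) and without VSG mouse 2 (-0.46).

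Nqo1, a quinone reductase widely used as an index of Nrf2 activity, was the lowest of the 10 genes. Nqo1 (chr8:109912125-109927106, minus strand) was at 2.275 and 2.009 FPKM in Control, 6.075 and 3.038 in Sham, and 4.73 and 4.973 in VSG mice. Both groups on the high-fat diet were above the Control mice, with a 1.999-fold spread between the Sham mice. Sham minus Control was 0.77 ± 0.33 (adjusted p = 0.487 by limma) and VSG minus Control was 0.90 ± 0.33 (0.05 to 1.74, adjusted p = 0.498 by limma). VSG minus Sham was 0.13 ± 0.33 and was -0.27 without Sham mouse 2.

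Hmox1, heme oxygenase 1, degrades heme to biliverdin, iron and carbon monoxide and is also made by macrophages. Hmox1 (chr8:77617490-77624495, plus strand) was at 24.27 and 33.72 FPKM in Control, 20.53 and 31.48 in Sham, and 11.44 and 16.36 in VSG mice. The higher VSG mouse was 1.25-fold below the lowest of the other 4 mice. Set against Sham, the VSG estimate was -0.85 ± 0.34 (adjusted p = 0.944 by limma) and VSG minus Control was -1.01 ± 0.34 (-1.87 to -0.15, adjusted p = 0.482 by limma). Sham minus Control was -0.16 ± 0.34 and took the other sign without Control mouse 2 (0.07) or without Sham mouse 1 (0.13).

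Gpx1 (chr9:108241607-108242671, plus strand) was at 1142 and 1182 FPKM in Control, 1772 and 761.7 in Sham, and 1815 and 1888 in VSG mice. The Sham mice lay 2.33-fold apart, on either side of the Control mice, so the group means of Control and Sham do not describe their mice alike. VSG minus Control was 0.67 ± 0.46 and VSG minus Sham was 0.67 ± 0.46, with adjusted p values of 0.702 and 0.944 by limma. Relative to Sham, VSG differed by 0.06 without Sham mouse 2 and 1.28 at the other end of the alternatives.

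**Figure D2:**
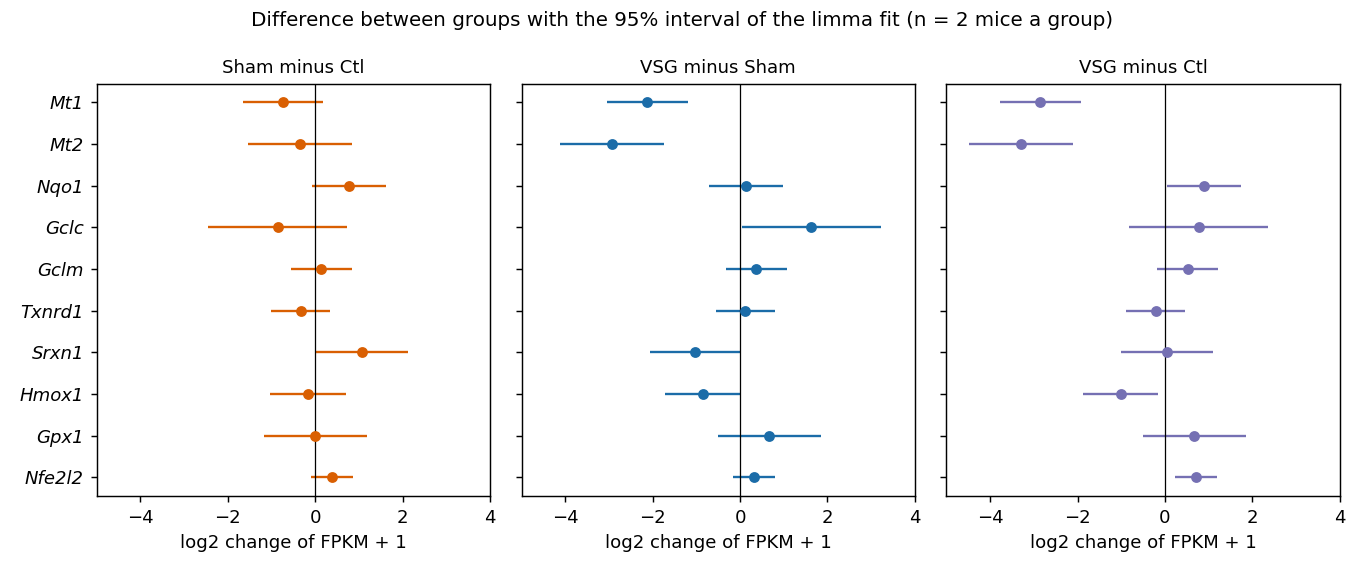
Difference in log2(FPKM + 1) of each gene for Sham minus Ctl, VSG minus Sham and VSG minus Ctl. Points are limma estimates from 2 mice a group and bars are 95% confidence intervals. The estimates of Mt1 (-2.12 and -2.86) and Mt2 (-2.94 and -3.29) in both VSG comparisons are far below those of the other 8 genes.

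Counted over the 10 genes, 0 passed the FDR of 10% by limma in VSG minus Sham, where 5 of 9869 genes (0.0507%) did (3 higher and 2 lower, or 3 and 1 after quantile normalization). At an unadjusted p under 0.05 there were 3 (Mt1, Mt2 and Gclc), against 4.85% of all genes. In Sham minus Control 0 of 10 passed, against 0.284% of all genes, and 1 (Srxn1) had an unadjusted p under 0.05, against 10.9% of all genes. In VSG minus Control 0 of 10 passed, against 0.284%, and 5 (Mt1, Mt2, Nqo1, Hmox1 and Nfe2l2) had an unadjusted p under 0.05, against 9.56% of all genes. Mt1 passed in VSG minus Control under 2 of 15 alternative settings, without a mean-variance trend (adjusted p = 0.0904 by limma) and with quantile normalization (adjusted p = 0.09997 by limma), and over the other settings it did not. The median log2 difference of the 10 genes was -0.08 for Sham minus Control, 0.12 for VSG minus Sham and 0.28 for VSG minus Control, where the medians of all genes tested were 0.04, 0.08 and 0.13. Positive estimates numbered 5 of 10 in Sham minus Control, 6 in VSG minus Sham and 6 in VSG minus Control, against 52.8%, 59.6% and 61.3% of all genes.

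The groups did not overlap for 7 of the 10 genes in VSG against Sham, for 8 in VSG against Control and for 5 in Sham against Control, where 28.3%, 48.5% and 45.8% of all genes did not. Mt1, Mt2, Srxn1 and Hmox1 were lower in both VSG mice (9.78% of all genes were), and Gclc, Gpx1 and Nfe2l2 were higher in both (18.5% of all genes). Against Control, 3 genes (Mt1, Mt2 and Hmox1) were lower in both VSG mice, with 14.8% of all genes, and 5 (Nqo1, Gclc, Gclm, Gpx1 and Nfe2l2) were higher, with 33.7% of all genes. Between Sham and Control, 3 genes were higher in Sham (Nqo1, Srxn1 and Nfe2l2) with 25.4% of all genes, and 2 were lower (Mt1 and Gclc) with 20.4%. With 2 mice against 2, an exact permutation test of a single gene cannot give a p below 0.333.

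Genes whose levels followed Mt1 most closely over the 6 mice were Scara5, Ngdn and Naca, by the root mean square difference of log2(FPKM + 1) after centring each gene on its mean, among 6804 genes. The differences were 0.374, 0.389 and 0.421, and Mt2 ranked 4 at 0.432. Scara5, a receptor for ferritin, was at 20.3 and 23.4 FPKM in Control, 8.05 and 18.5 in Sham, and 5.37 and 1.76 in VSG mice. Naca, a subunit of the nascent polypeptide-associated complex, was at 193 and 187, 199 and 151, and 34.2 and 40.3 FPKM in the same order. For Nqo1 the closest genes were Msrb2 (0.0337), Nmi (0.0454) and Agmat (0.0789), none of which is among the 10. Hmox1 ranked 43 in likeness to Mt1. Ranks over 6 mice describe these libraries only.

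Further Nrf2 targets, 35 genes of glutathione transfer, NADPH supply, transport and iron storage, gave 30 tested genes, and 0 passed the FDR of 10% in any comparison. VSG minus Sham was positive for 24 of the 30, against 59.6% of all genes, with a median of 0.42 beside 0.08 for all genes. The groups did not overlap for 3 of the 30 in the higher direction and 2 in the lower, where 18.5% and 9.78% of all genes did not. Summed over the list, FPKM was 7852 and 8728 in Control, 10190 and 4789 in Sham, and 7669 and 10250 in VSG mice. Sham mouse 1 thus lay between the VSG mice, and Sham mouse 2 was the lowest of all. Aox1, an aldehyde oxidase, had the smallest p. It was at 6.122 and 6.747 FPKM in Control, 5.038 and 3.529 in Sham, and 13.04 and 19.25 in VSG mice, and VSG minus Sham was 1.69 ± 0.29 with an adjusted p of 0.481 by limma. In Sham minus Control the median was -0.21, and the smallest p belonged to Pgd, an enzyme of the pentose phosphate pathway (0.73, adjusted p = 0.352 by limma). In VSG minus Control the median was 0.25, and the groups did not overlap for 13 of the 30 in the higher direction and 3 in the lower, where 33.7% and 14.8% of all genes did not.

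The 19 other antioxidant enzymes, among them catalase, superoxide dismutases and peroxiredoxins, gave 18 tested genes, and 0 passed in any comparison. Their median was 0.05 for Sham minus Control, 0.26 for VSG minus Sham and 0.31 for VSG minus Control. VSG minus Sham was positive for 15 of 18, against 59.6% of all genes. The groups of that comparison did not overlap for 3 of the 18, all higher in VSG, with 18.5% of all genes. VSG minus Control was positive for 15 of 18, against 61.3% of all genes. Its groups did not overlap for 13 in the higher direction and 1 in the lower, where 33.7% and 14.8% of all genes did not. Summed over the list, FPKM was 3937 and 3378 in Control, 5408 and 2277 in Sham, and 4452 and 4367 in VSG mice. Sham mouse 1 thus lay above both VSG mice and Sham mouse 2 below them. The smallest p in VSG minus Sham was that of Sod3, the extracellular superoxide dismutase (0.94, adjusted p = 0.83 by limma). Sod3 also had the smallest p in Sham minus Control (-0.56), and Prdx3, the mitochondrial peroxiredoxin, in VSG minus Control (0.62).

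Genes of zinc and copper handling were examined beside the metallothioneins, and of 20 such genes 14 were tested, 0 passed in any comparison, and the medians were -0.02, 0.02 and -0.04. Mtf1, which encodes the factor that binds MREs, was low in every group, at 1.785 and 1.565 FPKM in Control, 0.535 and 1.43 in Sham, and 1.793 and 1.10 in VSG mice. Slc30a1, a zinc exporter and itself an MTF-1 target, was at 12.26 and 13.21 FPKM in Control, 6.483 and 11.82 in Sham, and 6.659 and 4.145 in VSG mice, and VSG minus Control was -1.13 (adjusted p = 0.473 by limma). Slc39a14, a zinc and iron importer, was at 48.81 and 75.96 FPKM in Control, 37.83 and 89.91 in Sham, and 22.77 and 30.5 in VSG mice, and VSG minus Sham was -1.12 (adjusted p = 0.944 by limma). For both transporters the VSG mice lay low, but Sham mouse 1 of Slc30a1 lay within their range. Cp, the copper-carrying ferroxidase ceruloplasmin, had the smallest p in Sham minus Control (2.85, adjusted p = 0.388 by limma).

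Since metallothionein genes also respond to glucocorticoids and inflammation, genes of both responses were read in the same mice. Of 11 glucocorticoid-responsive genes, 9 were tested. Tat, tyrosine aminotransferase, was at 1376 and 1477 FPKM in Control, 210.2 and 187.6 in Sham, and 232.6 and 282.6 in VSG mice. Tat fell by 2.84 on the log2 scale from Control to Sham (adjusted p = 0.0445 by limma) and by 2.47, as a log2 difference of -2.47, from Control to VSG (adjusted p = 0.0679 by limma), and these were the only calls in the list. Each of these calls was lost under 7 of the 15 alternatives, with adjusted p values by limma of up to 0.484 and 0.564. Both were lost without Control mouse 1, Control mouse 2, VSG mouse 1 or VSG mouse 2, with the replicate block (adjusted p = 0.154 and 0.234 by limma) and with 1 FPKM required in all 6 mice (adjusted p = 0.13 and 0.157 by limma). The first was also lost with only the 2 groups compared, and the second with no filter. In VSG minus Sham 0 passed, the list's median was 0.37, and Dusp1, a phosphatase gene, had the smallest p (1.81, adjusted p = 0.739 by limma). The summed FPKM of the list was 3423 and 3598 in Control, 747.6 and 1261 in Sham, and 830.5 and 1444 in VSG mice, so the Sham and VSG mice overlapped where the metallothioneins did not.

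Of 23 acute-phase genes 15 were tested and 0 passed in any comparison, and the serum amyloid genes, Hpx, Fga and Fgb were not analysed here. All 15 had negative log2 differences in VSG minus Sham, with a median of -1.45, where 59.6% of all genes had positive ones. The groups of that comparison did not overlap for 9 of the 15, all lower in VSG, with 9.78% of all genes. The medians were 1.21 for Sham minus Control and 0.28 for VSG minus Control. Summed over the list, FPKM was 16800 and 17390 in Control, 37800 and 67940 in Sham, and 28260 and 11910 in VSG mice. The Control mice, which had the highest Mt1 levels, and the VSG mice, which had the lowest, thus both had acute-phase sums below those of the Sham mice. The smallest p values were those of Orm2 in Sham minus Control (5.02), Steap4 in VSG minus Sham (-1.68) and Hamp, which encodes hepcidin, in VSG minus Control (-6.53), with adjusted p values of 0.159, 0.712 and 0.3325 by limma. The part of either response in the metallothionein levels was not tested.

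Whole liver holds several cell types, and in such tissue fewer cells of a type and less RNA per cell cannot be told apart. The labelled tissue was checked by 6 measured hepatocyte markers, which summed to between 8736 and 17250 FPKM over the mice. Of the 6, 0 passed the FDR of 10%, and the log2 difference was negative for 6 in Sham minus Control and for 5 in VSG minus Control, and positive for 5 in VSG minus Sham. Positive differences made up 52.8%, 61.3% and 59.6% of all genes in these comparisons, in the same order. The 11 Kupffer cell markers (liver macrophages) summed to 52.9 and 36.3 FPKM in Control, 136.4 and 127.8 in Sham, and 104.7 and 342.5 in VSG mice. VSG minus Sham was positive for 9 of 11, against 59.6% of all genes. Its groups did not overlap for 1 of the 11, higher in VSG, with 18.5% of all genes. Hmox1, which macrophages also make, was at its lowest in the VSG mice, where the Kupffer sum was not. Neutrophil markers, with 3 of 8 tested and 1 (Ly6g) at 0 in every mouse, summed to 14.1 and 5.33, 43.2 and 47.0, and 22.9 and 17.0 FPKM in the same order of groups, and were, like Srxn1, highest in the Sham mice. Sinusoidal endothelial markers (7 of 8 tested) had medians of -0.96, 0.69 and 0.11, stellate cell markers (6 of 8) -0.29, 0.81 and 0.24, and cholangiocyte markers (2 of 6) 1.37, -0.86 and 0.51. By limma 0 markers of any of these 6 types passed in any comparison. The part of cell composition in the levels of the 10 genes was not tested.

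FAIRE peaks are stretches where DNA is recovered free of nucleosomes, and the deposited lists hold the peaks found in both mice of a group, so they carry no value per mouse and no test could be made. The lists held 42204 peaks for Control, 52881 for Sham and 44539 for VSG, with median signals of 0.252, 0.398 and 0.298, so each peak is given as its percentile among the signals of its own list. All 10 genes had a peak within 1000 bp of a start site in each of the 3 lists, and 8, 8 and 9 had one among the 50% of peaks with the highest signal of the Control, Sham and VSG lists. Of 22380 annotated protein-coding genes, 51.4% had a peak of any signal within 1000 bp in the Control list, 51.4% in the Sham list and 52.6% in the VSG list. This share was not limited to genes expressed in liver, whereas all 10 genes were expressed in every mouse.

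The percentiles of the 10 promoters ranged from 6 to 99.6 over the 3 lists. The highest promoter peak of Mt1 was at percentile 99.6 of the Control list, 98 of the Sham list and 97.5 of the VSG list. It spanned chr8:96702637-96703506 in Control (870 bp), chr8:96702622-96704508 in Sham (1887 bp) and chr8:96702652-96703434 in VSG (783 bp), each of which covers the annotated Mt1 start. The Mt1 promoter was thus among the highest peaks of the VSG list too, in the group where the Mt1 transcript level was lowest. Gpx1 was at percentiles 98.4, 92.3 and 96.2, and Nfe2l2 at 95.4, 95.4 and 97.7 with a peak of 2115 bp in Control. Gclc was the lowest, at 24.5, 6 and 10.6, and Nqo1 lay near the middle at 45.9, 43.4 and 51.8. The highest Gclc peak of each list did not cover the annotated start at position 77602342. These peaks ended before it, at 77601461 in Control, 77601467 in Sham and 77601449 in VSG. The VSG list held 2 Gclc peaks within 1000 bp of the start. The lower of them lay nearer the start, since all 10 genes kept a VSG peak within a narrower window. Whether that peak covers the Gclc start was not tested. Txnrd1 (90.9, 95.2 and 94.9), Gclm (83.6, 80.9 and 88.8), Hmox1 (84.3, 82.3 and 84.9) and Srxn1 (77.7, 71.6 and 83) lay between. Mt2 was at 91.7, 94.6 and 87.2, but its highest Sham peak lay upstream of the start. The Sham peak that covers the Mt2 start was at 86.8. Gclc and Nqo1, with the lowest peaks, differed widely in level, since Gclc was above 14 FPKM in every mouse.

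**Figure D3:**
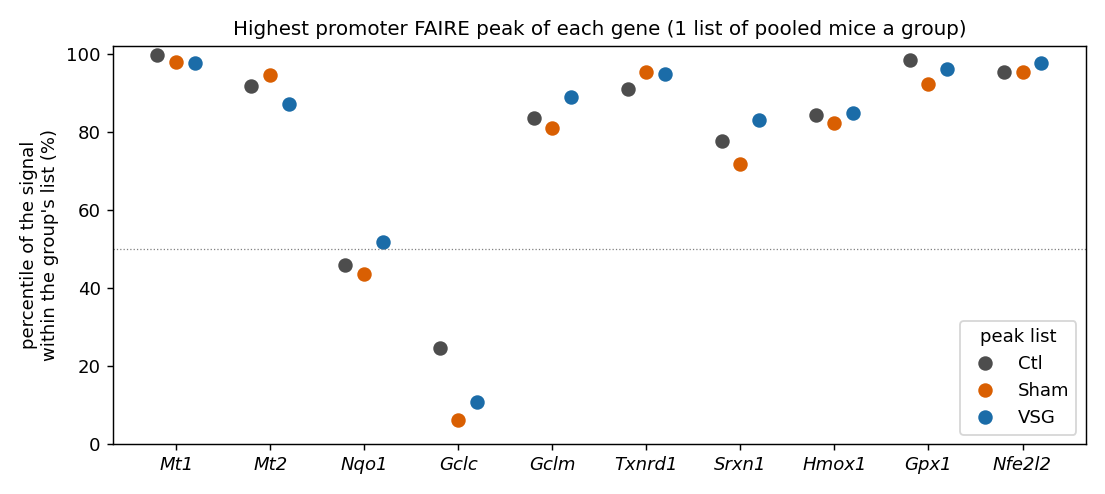
Highest FAIRE peak within 1000 bp of a start site of each gene, as a percentile (0 to 100) of the signal within the Ctl, Sham or VSG peak list, with 1 list for the 2 mice of a group. For Mt2 the Sham point is a peak upstream of the start, and the Ctl and VSG points are peaks that cover it. Mt1 lies at 97.5 or above in all 3 lists and Gclc at 24.5 or below. The Gclc points are peaks that end before its start.

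The metallothionein locus was read over chr8:96686518-96714225, which reaches 10 kb beyond Mt2 and Mt1 on either side and holds no other annotated gene. Peaks numbered 15 in the Control list, 13 in the Sham list and 8 in the VSG list, and covered 8951 bp (32.3% of the window), 10239 bp (37.0%) and 5500 bp (19.8%). Merged over the lists, they formed 13 regions, of which 8 were in all 3 lists, 1 only in Sham, 1 only in Control and 0 only in VSG. The other 3 were in the Control and Sham lists and absent from the VSG list. These lay downstream of Mt1, at 1621 to 2135, 2394 to 2718 and 2989 to 3779 bp from its start, beyond the 3′ end of the gene. Genome-wide, 8.40% of the 35715 regions shared by Control and Sham were absent from VSG, whereas at the locus 3 of 11 were.

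These 3 regions were weak in both lists that held them, at percentiles 15.1, 27.3 and 18.7 of the Control list and 18.2, 6.3 and 4.2 of the Sham list. Among regions with a Control signal below the median of that list, 18.9% of 15167 were absent from VSG genome-wide, and 3 of 5 were at the locus. The genome-wide share was not limited to regions as low in both lists as these 3. The regions share 1 locus and are not independent of each other, and where a list has no peak its signal is unknown. The region that covers the Mt2 start was at percentiles 91.7, 86.8 and 87.2, and a region that begins at -1505 bp from it stood at 89, 94.6 and 78.7. Between the genes, 1280 to 2415 bp from the Mt2 start, a region was at 49.6 in Control, 69.6 in Sham and 9.3 in VSG. Farther upstream, a region that begins at -5420 bp from the Mt2 start was at 67.5, 76.3 and 47.9. The lists differ in length, so these percentiles are given side by side and no change is read from them.

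**Figure D4:**
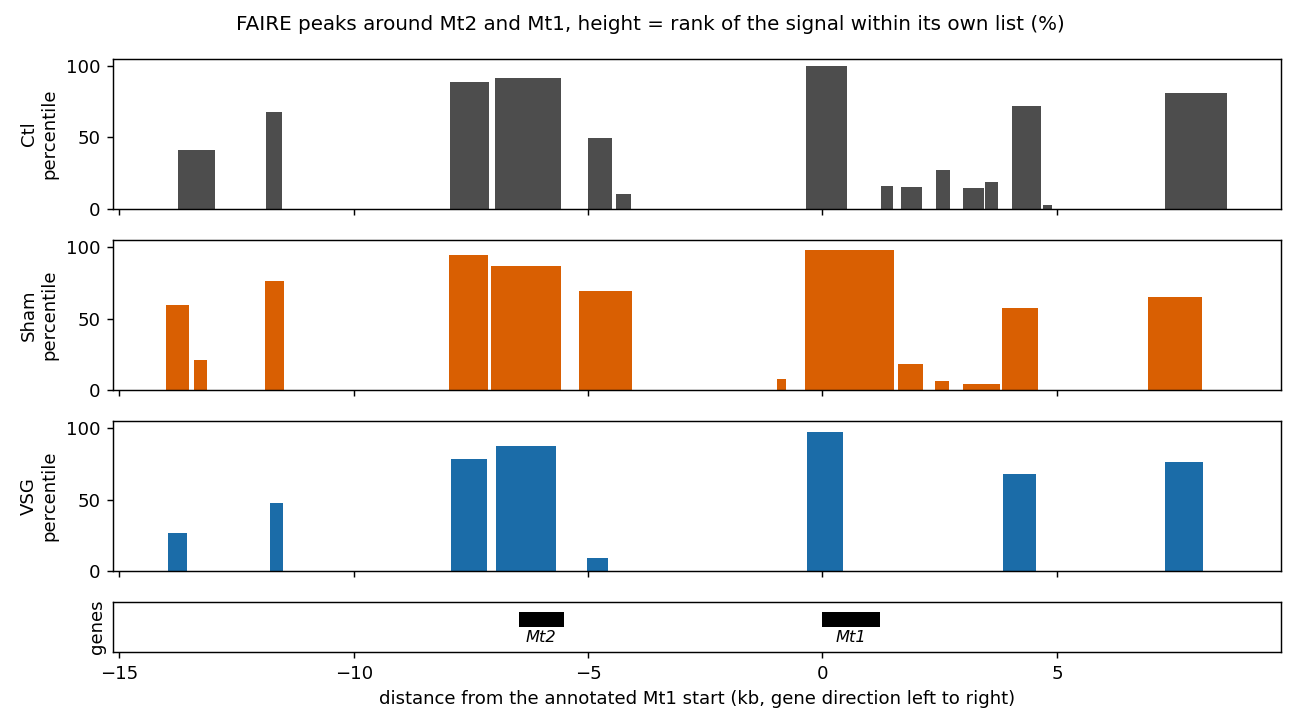
FAIRE peaks across the metallothionein locus in the Ctl, Sham and VSG lists, drawn by distance in kb from the Mt1 start, with 1 list per row, the height of a bar as the percentile of its signal within that list, and the Mt2 and Mt1 gene bodies at the bottom. The 3 regions between 1621 and 3779 bp have peaks in the Ctl and Sham rows and none in the VSG row.

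Around the other 8 genes, within 10 kb of the gene body, the regions shared by Control and Sham numbered 3 at Nqo1, 2 at Gclc, 5 at Gclm, 7 at Txnrd1, 2 at Srxn1, 6 at Hmox1, 5 at Gpx1 and 4 at Nfe2l2. Of these, 1 was absent from the VSG list at Nqo1, 1 at Gclm, 1 at Hmox1 and 2 at Nfe2l2, and none at the other 4 genes, together 5 of 34 (14.7%) beside the 8.40% of all such regions. At Gclc 3 regions were in the Sham list only, the list with the most peaks of the 3.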

How the data were processed

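Per the labels, RNA of the livers used for FAIRE was sequenced as 50-base reads. The labels name poly(A) enrichment, whereas the study's methods name ribosomal RNA depletion. Reads were aligned to mm9 with TopHat2, and the authors computed FPKM per RefSeq transcript with Cufflinks. FAIRE reads were aligned with bowtie, and the deposited peak lists hold the F-seq signal of peaks reproducible between the 2 mice of a group. Tables of the authors' own DESeq2 comparisons (fold changes and p-values) and their lists of variable sites were not used.

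Transcripts were named through a RefSeq table (34042 of 34933 matched) and FPKM was summed per gene. Genes with at least 1 FPKM in at least 2 mice (9869) were tested by limma 3.58.1 with a mean-variance trend in R 4.3.3 on log2(FPKM + 1), all 6 mice in 1 fit, with Benjamini-Hochberg adjustment and an FDR of 10%. A pseudocount of 1 understates differences of low genes. Replicates were separate livers. The fit was tested on simulated data. Peaks were counted at a promoter within 1000 bp of a start, with an overlap of 1 bp, on the NCBIM37 annotation. The 3 comparisons were run under 15 alternatives, and the peak counts under 6.

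The members and the gene lists were chosen with earlier results of these data known. All 10 members were named, and from each other list the genes called or, where none was, the gene with the smallest unadjusted p in each comparison, with Keap1, Mtf1, Mt3 and Mt4 added after their values were seen. For Mt1 and Nqo1 the 3 genes of the most alike pattern were named.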

Additional observations from a re-analysis of the deposited data

How the results depend on the processing

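Of the 10 genes, 0 passed the FDR of 10% with any mouse left out (range 0 to 0 in each comparison), and 1, Mt1, passed in VSG minus Control without a trend and with quantile normalization. No difference of the 10 genes with an unadjusted p under 0.05 changed sign under any of the 15 alternatives. Over the 15 alternatives VSG minus Sham was -2.44 to -1.79 for Mt1 and -3.44 to -2.45 for Mt2, and VSG minus Control was -3.18 to -2.53 and -3.62 to -2.97. The number of all genes called depended on the setting. In VSG minus Sham it was 5, and became 8 with a pseudocount of 0.1, 9 with each transcript on its own, and 0 with at least 1 FPKM required in all 6 mice or with only the 2 groups compared. In Sham minus Control it was 28, and became 64 with no filter, 17 with only the 2 groups and 0 with 1 FPKM in all 6 mice. In VSG minus Control it was 28 and became 0 with that filter. With 1 mouse left out the counts ranged from 0 to 50 in VSG minus Sham, from 0 to 157 in Sham minus Control and from 0 to 34 in VSG minus Control. The highest counts came without Sham mouse 2, and each was 0 without either Control mouse. The cause was not tested. Quantile normalization moved the median of all genes from 0.13 to 0.00 in VSG minus Control. With the replicate block the counts were 0 in VSG minus Sham, 9 in Sham minus Control and 10 in VSG minus Control, and 0 of the 10 genes passed. The labels give a replicate number and no batch, so whether same-numbered mice shared a batch is unknown. Differences between mouse 1 and mouse 2 correlated across genes at 0.12 (Control and Sham), 0.06 (Control and VSG) and 0.04 (Sham and VSG). Genes with a promoter peak, 10 in each list, numbered 9, 9 and 10 in Control, Sham and VSG within a narrower window around the start or with peaks of at least 250 bp, 8, 8 and 9 with the highest 50% of peaks, 10, 9 and 10 with equal list sizes, and 10 in each under the other 2 peak alternatives. FPKM keeps no read depth, so counting error could not be given.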
